A study of Mus musculus with 32 samples.

Results

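The regions described here were open in blood stem and progenitor cells of fetal liver and bone marrow and less open in the E12.5 cells labelled PL. They were chosen from ATAC-seq counts, as CPM (the counts of a region scaled to the total of its library), by 1 rule: autosomal regions in which each of the 8 groups other than E12.5 PL had a mean of at least 5 CPM and at least 4 times the mean of E12.5 PL 1 to 3. The rule held for 1545 of 96960 autosomal regions (1.59%), out of 99037 regions in the table. Of the 33507 autosomal regions at 5 CPM or more in all 8 groups, the members were 4.61%, and the remaining 31962 serve as the comparison set, called the other open regions. All cells came from C57BL/6 mice and carried the LSK label, which stands for cells without lineage antigens that bear Sca-1 and Kit, the fraction in which blood stem and early progenitor cells lie. The 8 groups were E12.5 FL and E16.5 FL (fetal liver), and perinatal, 1w, 3w, 4w, 6w and 8w BM (bone marrow), with 3 libraries in each group, E12.5 PL included, except 3w BM with 2. The labels do not spell out PL. In a separate experiment E12.5 FL cells spent 2 h in culture, with 3 libraries in basic medium (SHI) and 3 in a medium that hepatocytes of E16.5 had conditioned (co-SHI), and those 6 libraries played no part in the choice of regions. Sexes, ages beyond the stage and any pooling of animals are not given in the sources used here, so the spread between libraries may be technical.

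In ATAC-seq the Tn5 transposase cuts and tags DNA that is free of nucleosomes, so a high count marks a promoter or a distal element that proteins can reach. Blood cells open such elements with lineage factors, of which RUNX proteins and the ETS factor PU.1 are the classic examples, and many of the genes served by them encode signalling proteins and surface receptors of leucocytes. Definitive blood stem cells arise from endothelium in the embryo, expand in the fetal liver and settle in the marrow around birth.

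The total counts over the table were 4498323 to 5066732 in E12.5 PL, 3341392 to 3968734 in the liver groups and 2845113 to 10167340 in marrow. Of the antigens behind the LSK label, the 16 regions assigned to Kit summed to 132 to 158 CPM in E12.5 PL and 71.8 to 107 CPM in E12.5 FL, and the 1 region of Ly6a, which encodes Sca-1, stood at 3.87 to 5.11 CPM and 0.784 to 3.53 CPM. The 10 regions of Ptprc, which encodes the leucocyte antigen CD45, summed to 35.6 to 44.1 CPM in E12.5 PL and 114 to 138 CPM in E12.5 FL. Over the marker list of endothelium (200 regions), the summed level was 1390 to 2110 CPM in E12.5 PL and 1420 to 1500 CPM in E12.5 FL, and over that of trophoblast and placenta (83 regions) it was 640 to 758 CPM and 554 to 572 CPM. Of the single genes of these lists, 3 keratin genes and Cdh5 are given here, and the others only as part of the sums. The keratin genes, which mark epithelia such as trophoblast, had summed levels in E12.5 PL and E12.5 FL of 49.2 to 81.1 and 24.3 to 36.4 CPM (Krt8), 57 to 111 and 32.9 to 39.4 CPM (Krt18), and 13.1 to 23.5 and 2.17 to 5.04 CPM (Krt19). Cdh5, the cadherin of endothelium, had 116 to 173 and 98.5 to 117 CPM. The E12.5 PL libraries thus lay above those of E12.5 FL at the 3 keratin genes and overlapped them at Cdh5, with medians of 172 and 107 CPM. At Alb, a hepatocyte gene (5 regions), the E12.5 PL libraries lay below, with 10.4 to 18.6 against 19.1 to 26.1 CPM. Over the whole hepatocyte list (51 regions) the sums overlapped, with 302 to 399 and 292 to 334 CPM. The part of other cell types in the difference between E12.5 PL and the 8 groups was not tested, and in such bulk samples fewer cells with an open region and a less open region in each cell cannot be told apart. The library 8w BM 3 carries a stage label of E12.5, and over the counts it correlated with the other 8w BM libraries at r = 0.935 to 0.937 and with E12.5 FL at 0.817 to 0.838.

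Transcription starts lay within few of these regions. In the RefSeq promoter table (build GRCm38.p6, whose coordinates match mm10), 50 windows of 300 bases, from 250 before to 50 after a start, lay wholly inside 45 members and belonged to 46 genes. The 200 bases before the start are printed below for the 6 such regions with the highest level, and for Spp1 and Mpo as examples of a promoter with both motifs and of one with neither. They run 5′ to 3′ on the gene's strand and end at the base before the start. Capitals mark the RUNX motif TGTGGT and the PU.1 motif GAGGAAGT, or their reverse complements.
Dock2: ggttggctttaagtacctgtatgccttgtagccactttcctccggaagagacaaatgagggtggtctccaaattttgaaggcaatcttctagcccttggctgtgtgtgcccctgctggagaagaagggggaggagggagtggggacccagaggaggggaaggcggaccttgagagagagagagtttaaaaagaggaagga
Traf3ip3: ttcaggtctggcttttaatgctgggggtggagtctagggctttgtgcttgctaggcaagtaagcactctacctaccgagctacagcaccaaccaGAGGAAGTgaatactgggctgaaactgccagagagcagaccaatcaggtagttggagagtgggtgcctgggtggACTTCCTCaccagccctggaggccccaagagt
Rassf5: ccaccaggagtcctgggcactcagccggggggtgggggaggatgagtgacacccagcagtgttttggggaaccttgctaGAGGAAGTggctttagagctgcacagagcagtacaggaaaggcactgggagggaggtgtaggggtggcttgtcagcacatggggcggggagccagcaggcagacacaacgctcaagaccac
Runx3: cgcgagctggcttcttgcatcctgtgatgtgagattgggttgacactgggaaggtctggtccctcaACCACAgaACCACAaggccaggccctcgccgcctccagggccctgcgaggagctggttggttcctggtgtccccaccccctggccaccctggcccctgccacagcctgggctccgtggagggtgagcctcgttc
Arhgap30: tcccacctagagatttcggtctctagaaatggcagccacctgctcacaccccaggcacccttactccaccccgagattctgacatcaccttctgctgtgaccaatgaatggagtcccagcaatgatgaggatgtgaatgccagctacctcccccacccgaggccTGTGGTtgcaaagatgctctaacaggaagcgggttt
Cd33: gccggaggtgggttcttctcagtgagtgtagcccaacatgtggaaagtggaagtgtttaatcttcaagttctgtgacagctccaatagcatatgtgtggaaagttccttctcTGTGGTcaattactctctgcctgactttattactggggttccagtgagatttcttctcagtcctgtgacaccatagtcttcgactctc
Spp1: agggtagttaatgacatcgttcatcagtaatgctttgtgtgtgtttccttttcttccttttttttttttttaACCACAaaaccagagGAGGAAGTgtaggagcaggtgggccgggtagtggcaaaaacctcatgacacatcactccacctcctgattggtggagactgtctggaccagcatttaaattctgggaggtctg
Mpo: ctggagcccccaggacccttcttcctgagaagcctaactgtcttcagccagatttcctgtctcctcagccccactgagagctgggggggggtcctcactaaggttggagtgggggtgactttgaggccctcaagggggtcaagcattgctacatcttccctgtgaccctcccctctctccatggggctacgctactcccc
The stretches lie at chr11:34783906-34784105 on the minus strand for Dock2, chr1:193201547-193201746 (minus) for Traf3ip3, chr1:131200186-131200385 (minus) for Rassf5, chr4:135120445-135120644 (plus) for Runx3 and chr1:171388760-171388959 (plus) for Arhgap30. Those of Cd33, Spp1 and Mpo lie at chr7:43533172-43533371 (minus), chr5:104434911-104435110 (plus) and chr11:87793584-87793783 (plus). Runx3 held 2 RUNX matches close together and Traf3ip3 held 2 PU.1 matches on opposite strands, while the stretches of Dock2 and Mpo held neither motif.

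Over the 50 full windows inside members, the RUNX motif TGTGGT was found on either strand in 26 windows (52.0%), against 12.2% of 10798 windows inside the other open regions and 16.8% of all 32851 windows. The PU.1 motif GAGGAAGT was found in 16 windows (32%), against 3.28% and 3.20%. Neither motif contains the other, and 6 windows held both while 14 held neither. The broader ETS motif CCGGAAGT, which has the letters GGAAGT in common with that of PU.1, went the other way, with 2.00% of member windows, 8.86% of windows in other open regions and 3.89% of all. For the GATA motif AGATAA the 3 shares were 10.0%, 4.82% and 11.2%, for the E-box CAGCTG 18%, 14.7% and 16.3%, for the CTCF core CCCTC 74.0%, 77.2% and 66.0%, and for the AP-1 motif TGANTCA 4.00%, 4.38% and 7.81%. The longer NF-E2 motif, which contains that of AP-1, was in none of the member windows and in 0.102% and 0.155% of the 2 other sets. The windows also differed in base composition: the median GC content was 51.0% in members, 63.0% in other open regions and 52.7% over all, and the median number of CG dinucleotides was 4, 23 and 7. A match is a description of the letters and not a binding site, some genes have more than 1 window, and the part of base composition in these shares was not tested.

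In the promoter region of Dock2 (chr11:34782894-34784577), whose product activates Rac in leucocytes, the 3 E12.5 PL libraries had 5.78, 9.08 and 14.2 CPM, the 6 liver libraries 36.3 to 51.2 (median 46.5) and the 17 marrow libraries 44.9 to 82.9 (median 64.0). No library of liver or marrow came down to the level of E12.5 PL, and the liver and marrow ranges overlapped in part. The region at the start of Runx3 (chr4:135120205-135120801), a transcription factor of T and NK cells, had 5.13 to 8.81 CPM in E12.5 PL, 20.9 to 40 (median 37.1) in liver and 41.6 to 73.7 (median 63.7) in marrow. Here liver and marrow did not overlap. Cd33 (chr7:43532937-43533517), a sialic acid receptor of myeloid cells, had 2.00, 5.33 and 6.23 CPM in E12.5 PL, 23.3 to 41.0 (median 31.4) in liver and 34.4 to 53.9 (median 40.2) in marrow. Its liver and marrow ranges overlapped.

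Arhgap30 (chr1:171388649-171389276), which encodes a GTPase-activating protein, had 6.00 to 11 CPM in E12.5 PL, 29.6 to 42.6 in liver and 40.1 to 66.2 in marrow. Traf3ip3 (chr1:193200896-193201875), an adaptor that binds TRAF3, had 6.00 to 12.7, 34.4 to 60.9 and 51.0 to 74.2 CPM. Rassf5 (chr1:131199126-131200506), a Rap1 effector in lymphocyte adhesion, had 3.78 to 15.2, 27.8 to 50.1 and 53.2 to 74.8 CPM. Of these 3, Rassf5 alone had liver and marrow libraries that did not overlap. How often liver and marrow did not overlap over all regions was not counted, here or below. Spp1 (chr5:104434779-104435376), which encodes osteopontin, had 1.72 to 4.54 CPM in E12.5 PL, 12.3 to 29.5 in liver and 11 to 28.7 in marrow. Mpo (chr11:87793261-87793928), which encodes the myeloperoxidase of neutrophil granules, was lower everywhere, at 0.395 to 2.22, 8.06 to 18.3 and 4.74 to 16.7 CPM. For Spp1 and Mpo the marrow range lay over that of liver.

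**Figure D1:**
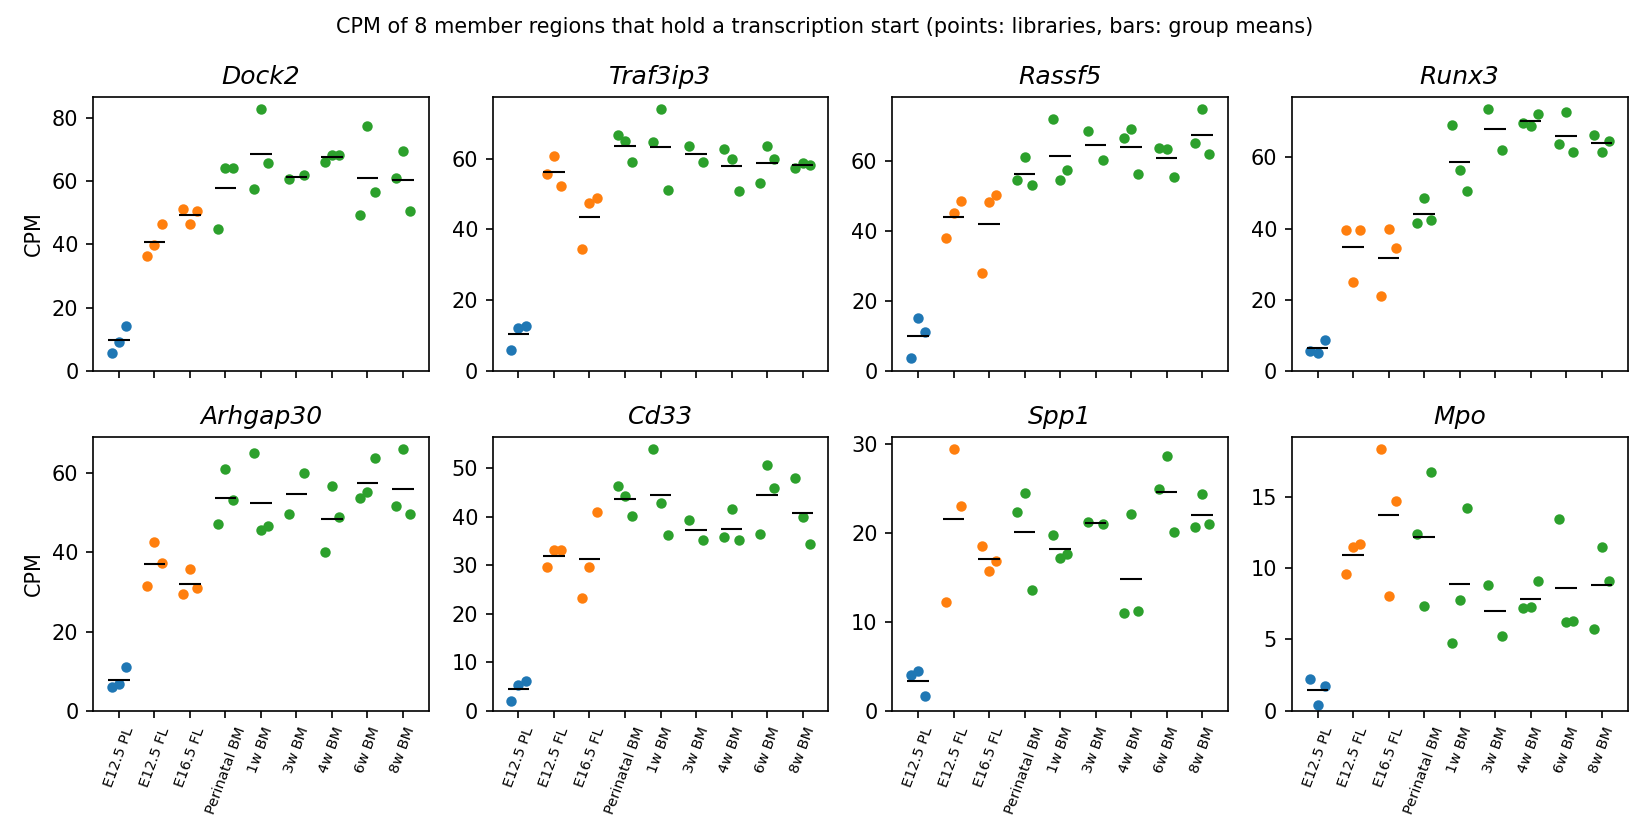
CPM (linear axis from 0) of 8 member regions that hold a transcription start, in the 26 libraries of the developmental series, with 1 point per library, bars at group means and colours for E12.5 PL (blue), liver (orange) and marrow (green). In Dock2, Runx3, Rassf5 and Arhgap30 the marrow means lie above those of liver, and in Spp1 and Mpo they do not form a higher level.

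The start regions of the other 22 named genes of this kind covered receptors and ligands of immune cells (Il18rap, Lair1, Fcgr2b, Clec4a3, Hrh2, P2ry13, Tnfsf14, Ccl3), signalling proteins (Syk, Sla2, Lax1, Arhgap15, Dock10, Pld4, Ccdc88b) and genes with other roles (Hnrnpf, Calm4, Kcnab2, Trpv2, Abcg3, Arpp21, Tmem273). Syk, the kinase of immunoreceptors, was among the most even of them, with 2.57 to 4.22 CPM in E12.5 PL, 15.4 to 23.9 in liver and 12.8 to 22.4 in marrow. Lax1, an adaptor of lymphocyte receptors, had 2.89 to 4.34, 25.5 to 28 and 21.3 to 45.0 CPM. Kcnab2, a potassium channel subunit, had 3.95 to 5.34, 12.1 to 28.3 and 28.8 to 40.7 CPM, with no overlap of liver and marrow.

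One member contained a microRNA gene. The hairpin of Mir155, at chr16:84714140-84714204 on the plus strand (RefSeq, GRCm38.p6), lay inside the region chr16:84713805-84714404. Its product is a microRNA of activated lymphocytes and myeloid cells, and the mature forms are printed with the seed, bases 2 to 8, in capitals.
mmu-miR-155-5p: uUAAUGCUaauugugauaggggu
mmu-miR-155-3p: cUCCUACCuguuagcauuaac
The region had 1.11, 1.58 and 1.72 CPM in E12.5 PL, 5.39 to 18.3 (median 8.19) in liver and 4.05 to 15.6 (median 8.42) in marrow. Its nearest protein-coding gene in the table was Mrpl39, 3.88 kb away, which is the gene the assignment by distance gave it.

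Across all members, the level in E12.5 PL was low but not zero. The median over members was 2.22 to 2.58 CPM in the 3 E12.5 PL libraries, 12.6 to 15.9 in E12.5 FL, 12.3 to 13.9 in E16.5 FL and 14.7 to 18.3 CPM in the marrow libraries. The members took 0.406 to 0.498% of all counts in E12.5 PL and 2.22 to 3.65% in the libraries of the 8 groups. The 3 E12.5 PL libraries together held a median of 34 counts and at least 5 in each member, so no member was without a count. In the other open regions the median CPM was 11.2 to 12 in E12.5 PL, against 14.4 to 16 CPM in the 23 libraries of the 8 groups. These values chose the members and are given as a description.

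**Figure D2:**
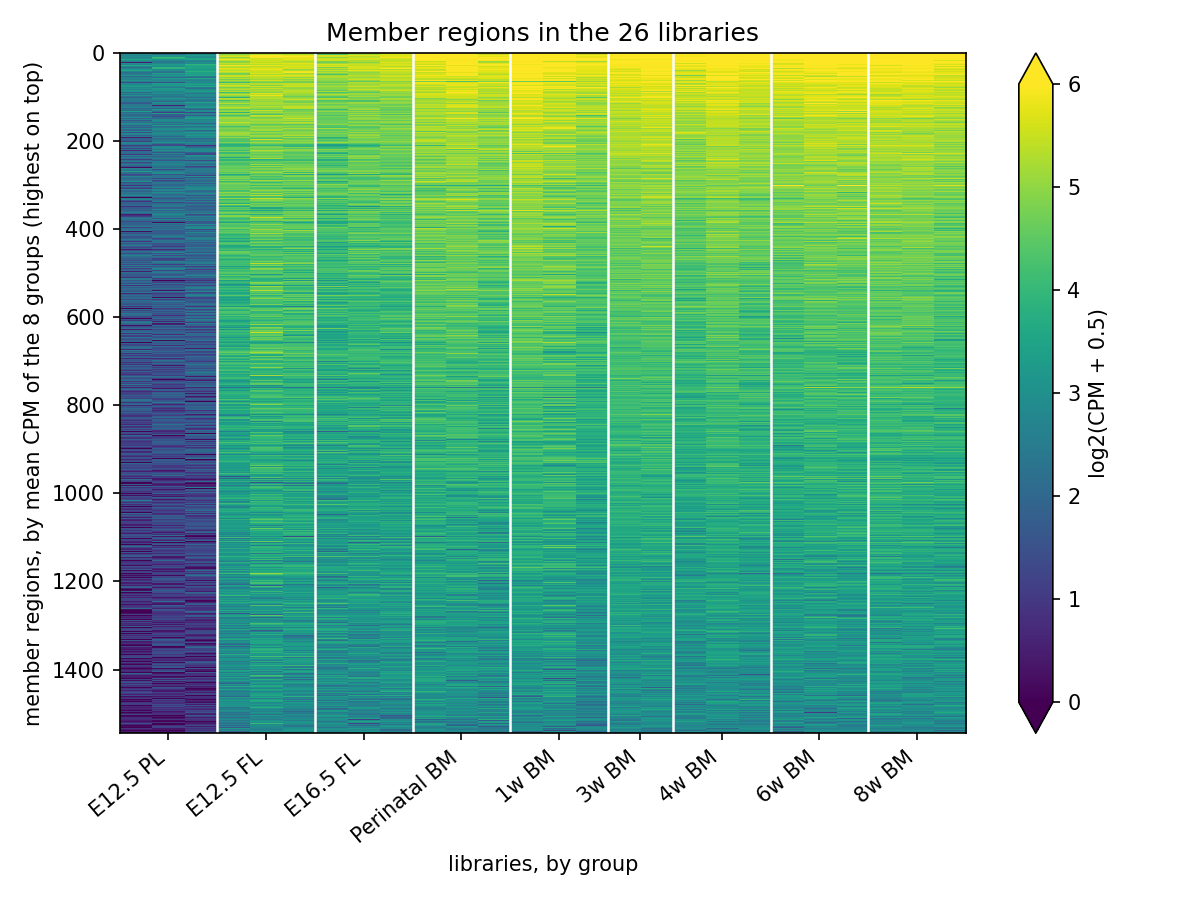
Level of the 1545 members (rows, sorted by the mean CPM of the 8 groups) in the 26 developmental libraries (columns), coloured by log2(CPM + 0.5). The 3 E12.5 PL columns are dark over the whole height, as the rule requires, and the liver columns are somewhat darker than those of marrow.

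**Figure D3:**
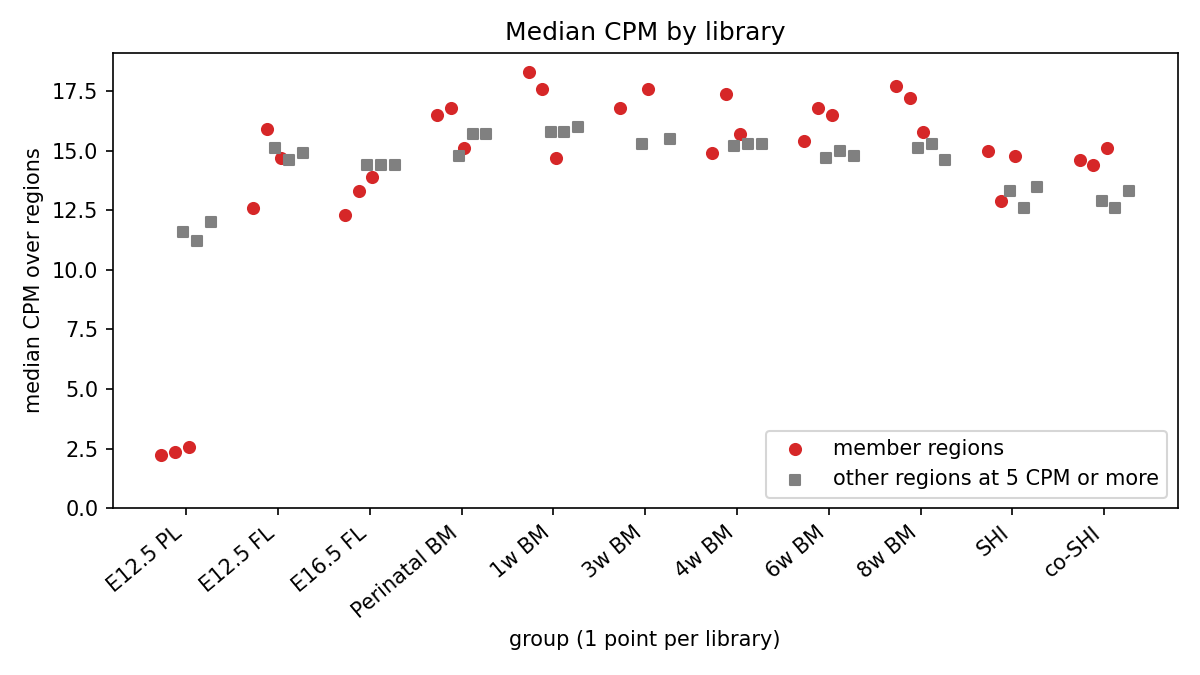
Median CPM over the members (red circles) and over the other open regions (grey squares) in each of the 32 libraries, on a linear axis from 0. The members stand at 2.22 to 2.58 CPM in E12.5 PL and at 12.3 CPM or more in all other libraries, those of the cultured cells included.

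In 1537 members (99.5%) the lowest of the 23 libraries of the 8 groups lay above the highest E12.5 PL library, against 24.4% of the other open regions and 12.9% of all autosomal regions, a gap that the rule itself selects. The lowest group mean was 4.00 to 16.7 times that of E12.5 PL (median 4.75), and 40 members reached a ratio of 8. At the border, members next to or in Cdh22, Clvs1 and Rasa3 had a ratio of 4.00, and regions of Inpp1, Treml2 and Atrnl1 lay just below it with like levels, such as 2.17 to 3.33 CPM in E12.5 PL and 8.06 to 13.9 CPM in liver for Inpp1. The number of members depended strongly on scaling: with TMM library sizes the rule held for 718 regions, 712 of them members, and with the size factors of DESeq2 for 331, all of them members. Asking every single library to reach 4 times the highest E12.5 PL library left 151.

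Among named genes, ranked with 0.2 CPM added to both means, the largest ratio was that of a region 14.3 kb from St8sia4 (chr1:95572668-95573370), which encodes a polysialyltransferase. It had 0, 0.987 and 0.215 CPM in E12.5 PL, 3.89 to 9.70 (median 7.71) in liver and 9.32 to 20 (median 15.2) in marrow, a ratio of 16.7. Liver and marrow overlapped only at their edges, and in the cultured libraries the region had mean levels of 3.77 CPM (SHI) and 3.09 CPM (co-SHI), below the minimum of the rule. Cyp4f18, which encodes a cytochrome P450 that acts on leukotriene B4, came next with 1.11, 0.987 and 1.93 CPM in E12.5 PL, 13.3 to 19.2 (median 15.6) in liver and 13.3 to 21.4 (median 18) in marrow. Its region (chr8:72008029-72008807) overlapped the gene and lay within 1 kb of a gene end. Its group means varied by a coefficient of variation (CV) of 8.59%. A region 30.4 kb from Lclat1, a cardiolipin acyltransferase gene, followed with 0 to 0.667 CPM in E12.5 PL and a ratio of 13.9, at a mean level over the 8 groups of 6.78 CPM.

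Regions in Slc23a2 (a vitamin C transporter) and near Diras2 (a Ras-family GTPase) had ratios of 11.3 and 10.1, at mean levels over the 8 groups of 7.66 and 26.9 CPM. The 3 E12.5 PL libraries together held 8 and 29 counts there, and 6 and 5 in the regions near St8sia4 and Lclat1. A deposited peak overlapped the region of Slc23a2 in 5 of the 23 libraries of the 8 groups and that near Diras2 in all 23. Stk10, a kinase of lymphocyte adhesion, Il1r1, the receptor of interleukin 1, Map3k19, H60c, a ligand of the NK receptor NKG2D, complement C6 and Brd7, a bromodomain protein of chromatin remodelling complexes, were also among the 12 largest ratios, with 9.18 to 9.62. In Il1r1 (chr1:40271050-40271629, in the gene body) the E12.5 PL libraries had 0.889, 1.29 and 2.17 CPM, liver had 11.1 to 19.3 and marrow 14.7 to 34.4. The 12 regions were 5 in or at a gene and 7 between genes, and only that of Cyp4f18 was a gene end.

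The members of highest level were not those of highest ratio. A region in the body of St6galnac5 (chr3:152912106-152913289), a sialyltransferase gene, had 9.34, 14.4 and 15 CPM in E12.5 PL, 50 to 88.3 (median 77.4) in liver and 91.7 to 144 (median 122) in marrow. The marrow libraries all lay above the liver libraries. Plekhf1, Olfm5, Btbd9, Pex5, Moxd2, Tmbim7, Utp18, Acss1 and Zfp831 followed with means of 66.3 to 77.1 CPM, ratios of 4.39 to 6.48 and, as in St6galnac5, a deposited peak in all 23 libraries. Each of these 10 regions also had a peak in at least 1 E12.5 PL library and a mean of 7.72 to 12.9 CPM in E12.5 PL, so that they were less open there and not closed. The nearest gene, here and below, need not be the one a distal region serves.

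Members were mostly distal. Only 102 (6.60%) lay within 1 kb of a gene's end, against 39.8% of the other open regions, while 737 (47.7%) lay in gene bodies (34.0%), 443 (28.7%) between genes within 50 kb (19%) and 263 (17.0%) had no gene within 50 kb (7.26%). A transcription start was within 1 kb of the centre of 3.22% of 1492 members with a known start distance, against 33.9% of other open regions, and the median distance was 38525 bp against 10460 bp. Over all autosomal regions of the table, open or not, 17.7% were gene ends and 13.6% had a start within 1 kb, so that members held fewer starts than that set too. The widths were alike, with medians of 572 bp and 638 bp. Members made up 3.49% (chromosome 11) to 6.02% (chromosome 13) of the regions at 5 CPM on each autosome.

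**Figure D4:**
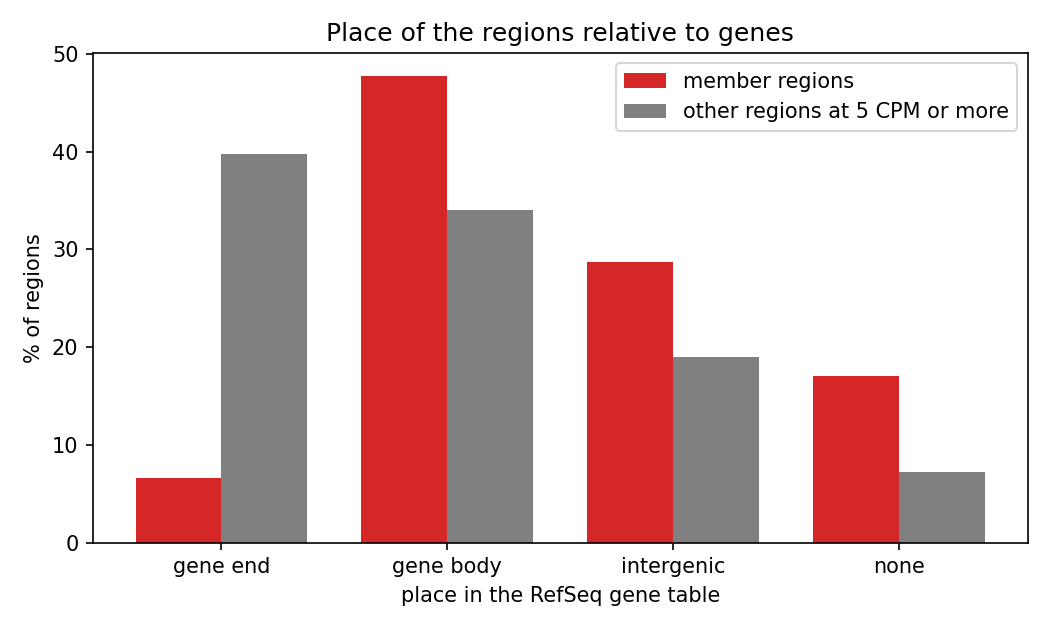
Share of regions at a gene end, in a gene body, between genes (intergenic) and with no gene within 50 kb (none), for the members (red) and the other open regions (grey), in percent from 0. Gene ends are 6.60% of the members and 39.8% of the other open regions.

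The 1282 members with a gene were assigned to 1082 genes, and 252 members (16.3%) had another member within 20 kb. The genes with most members were Plcg2, the phospholipase C of B cell and myeloid receptors (5 members of its 13 regions at 5 CPM), Ptpre, a receptor-type tyrosine phosphatase (5 of 14), and Slc8a1, a sodium-calcium exchanger (4 of 7). The 5 regions of Plcg2 spanned chr8:117481754-117544228, with means over the 8 groups of 8.21 to 27.4 CPM and of 1.06 to 4.72 CPM in E12.5 PL. In Ptpre neighbours behaved differently. The region chr7:135654950-135655536 had group means of 29.2 CPM in E12.5 FL, 25.6 in E16.5 FL, 26.8 in perinatal BM and 32.2 in 8w BM, while chr7:135659412-135660030, the next member downstream, went from 15.1 and 17.6 CPM to 24.1 in perinatal BM, 32.5 in 1w BM, 55.0 in 3w BM and 66.7 in 8w BM.

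The regions of genes of leucocyte signalling and of cytokine receptors were members at a higher share than those of all genes, a description for which no test was made. The share of a list's regions at 5 CPM that were members was 13.4% for cytokine receptors (13 of 97), against 4.61% over all genes, and haematopoietic signalling had 21 of 168. For genes of B and lymphoid priming it was 11.7% (7 of 60), for macrophages and dendritic cells 9.68% (6 of 62), for neutrophils 9.38% (3 of 32), for surface antigens of stem and progenitor cells 7.79% (6 of 77) and for T and NK cells 6.45% (4 of 62). Transcription factors of stem and progenitor cells were near the background with 5.26% (8 of 152). The lists of endothelium (59 regions), interferon (38), trophoblast (20) and hepatocytes (13) held no member, and immediate early genes 2 of 132. A list of genes silent in blood, meant as a reference, had 2 of 19 (10.5%), so that shares from lists this short say little. Mast cells (1 of 9), stroma (1 of 24), megakaryocytes (2 of 52) and erythroid cells (1 of 33) complete the 18 lists.

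**Figure D5:**
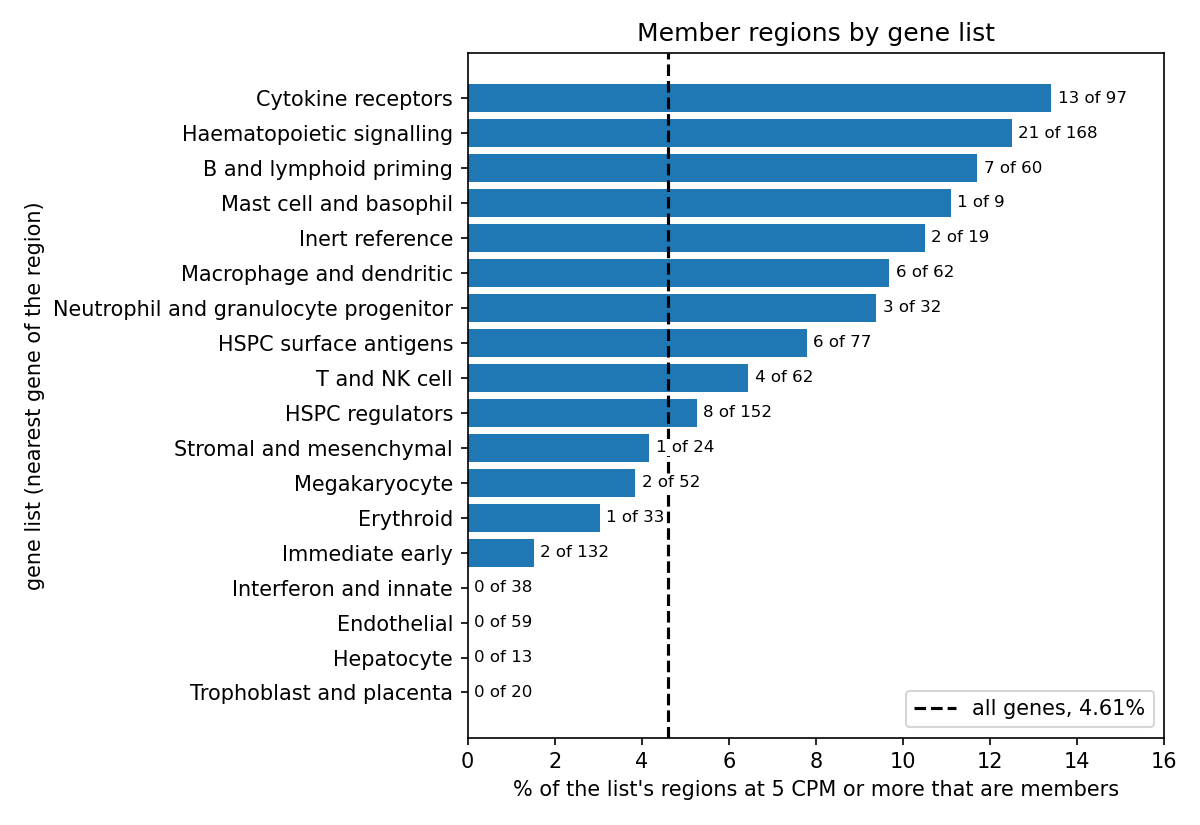
Share of the regions at 5 CPM or more assigned to each of 18 gene lists that are members, in percent from 0, with the counts beside the bars and a dashed line at 4.61%, the share over all genes. Cytokine receptors and haematopoietic signalling have the longest bars, and 4 lists have no member.

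Among cytokine receptors, members lay at 8 of 22 genes: Ifnar2, Il21r, Il17ra, Cxcr4, Il10ra, Ccr9, Csf2ra and Ifngr1. Over all genes with a region at 5 CPM it was 1082 of 13282 (8.15%). These counts of genes take no account of the number of regions per gene. The region in Il21r (chr7:125630169-125630767) had 6.12 to 8.00 CPM in E12.5 PL, 37.5 to 44.7 (median 43.7) in liver and 49.1 to 82.2 (median 68.2) in marrow. A region 22.4 kb from Cxcr4 (chr1:128614708-128615490), which encodes the receptor that holds stem cells in the marrow, had 2.22, 2.37 and 6.45 CPM in E12.5 PL, 16.6 to 40.6 (median 25.3) in liver and 44.3 to 60.3 (median 54.1) in marrow. In both regions all marrow libraries lay above all liver libraries. Il17ra had 4.00 to 10.1, 31.1 to 59.0 and 42.2 to 68.5 CPM, with overlap.

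The signalling list had members at 12 of 34 genes (against 8.15% of all genes), among them Dock2, Lcp2, Lyn, Laptm5, Plcg2, Syk, Rac2, Itgal, Itga4 and Tyrobp. Lcp2, the adaptor SLP-76, had 4.22 to 10.5 CPM in E12.5 PL, 29.5 to 42.2 in liver and 41.7 to 63.0 in marrow in a region of its gene body (chr11:34063649-34064528). Lyn, a Src-family kinase, had 7.52 to 8.68, 22.7 to 44.6 and 38.2 to 60.9 CPM in a region 28.2 kb away.

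Of the transcription factors of stem cells, Runx1 held 3 members among its 15 regions, and Meis1, Cbfa2t3, Myb, Mecom and Zfpm1 1 each. The highest of Runx1 (chr16:92821965-92822750, in the gene body) had 4.89, 5.59 and 10.1 CPM in E12.5 PL, 25.7 to 34.8 (median 29.9) in liver and 31.9 to 53.9 (median 40.1) in marrow. So at these genes most open regions were not members. Of the surface antigens, a region in Adgrg1, the receptor GPR56, had 4.93 to 9.46 CPM in E12.5 PL, 39.8 to 56.0 in liver and 41.7 to 78.1 in marrow, and one in Flt3, a cytokine receptor of multipotent progenitors, had 3.11 to 6.51, 30.5 to 46.5 and 34.2 to 62.3 CPM. Lymphoid genes gave members at Ikzf1 (3 of 9 regions), Bcl11a, Ebf1, Satb1 and Igll1, and those of T cells at Runx3, Lef1 and Notch1. In Lef1, a factor of the Wnt pathway, the region chr3:131207927-131209321 had 6.67 to 9.89, 38.2 to 49.2 and 43.7 to 83.3 CPM. Macrophage genes with members included Adgre1, Marco, Ccr2 and Zbtb46, and the neutrophil genes were Itgam and Mpo.

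From liver to marrow most members stayed within a 2-fold range. The highest of the 8 group means was 1.11 to 6.95 times the lowest (median 1.64), and under 2 times in 1279 members (82.8%), as in 81.6% of the other open regions (median 1.62). The CV of the 8 group means had a median of 16.7% in members and 16.3% in the others. Since the rule asks for 4 times the E12.5 PL mean in each group, regions that drop far in 1 group are left out, which narrows these ranges by construction. The most even member was a region 7.06 kb from Gpr146 (chr5:139403470-139404111), with a CV of 4.07%, and 20.5 to 26.9 CPM in liver, inside the range of marrow. Mrtfa, Rere, Dmwd, Rasa3, Hnrnpf, Rfx4 and Matk followed with CVs of 4.22 to 5.13%. The lowest group was E16.5 FL in 681 members (44.1%, against 26.8% of the others) and E12.5 FL in 344 (22.3%, against 18.2%).

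An F test over the 8 groups, by the quasi-likelihood method of edgeR with Benjamini-Hochberg adjustment over all 99005 regions tested, called 737 of the 1545 members (47.7%) at an adjusted p under 0.05, against 39.3% of the other open regions and 26.1% of all regions. With offsets by cyclic loess, which levels differences that depend on the count, the members called fell to 295 (19.1%) and the others to 19.8%. With total counts in place of TMM they were 462 (29.9%), against 29.7% of the others, so that the gap seen with TMM between members and others was not seen with either of these scalings.

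In marrow, members were more often called higher than lower relative to liver. Comparing the mean of the 6 marrow groups with that of the 2 liver groups, edgeR called 995 members higher in marrow and 6 lower (64.4% and 0.388%), where 20.0% and 19.9% of all regions and 45.7% and 4.38% of the other open regions were called. The median log2 fold change was 0.49 over members, 0.31 over the other open regions and -0.105 over all regions. With loess offsets 366 members were higher and 15 lower (23.7% and 0.971%, against 13.7% and 15.6% of the other open regions), and the median was 0.21 over members and -0.01 over the others. With total counts 604 were higher and 25 lower (39.1% and 1.62%, against 28.7% of the others higher), with medians of 0.27 over members, 0.09 over the others and -0.324 over all. In both directions together, members were called no more often than the others under these scalings (24.7% against 29.3% with loess offsets, 40.7% against 41.1% with total counts). Under each of these scalings higher calls outnumbered lower ones among members. By place, 67 of 102 gene-end members, 485 of 737 in gene bodies and 286 of 443 between genes were higher in marrow. Of the members with no gene within 50 kb, 157 of 263 were higher.

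The members with the smallest p rose by 1.41 to 1.84 on the log2 scale. In Ptpre (chr7:135659412-135660030) liver had 13.6 to 22.5 CPM (median 15.5) and marrow 18.3 to 72.8 (median 56.2), a log2 fold change of 1.76 (SE 0.14, edgeR adjusted p = 1.3e-15). The ranges overlapped through 1 marrow library, perinatal BM 1 at 18.3 CPM. A region 21.2 kb from Tcf7l1 (chr6:72810220-72810888), a repressor of Wnt targets, went from 9.07 to 20.6 CPM (median 11.8) in liver to 29.8 to 53.2 (median 37.6) in marrow, a log2 fold change of 1.84 (SE 0.16, edgeR adjusted p = 1.9e-14). Liver and marrow did not overlap there, nor in regions near Cdh26 (22.7 to 29.0 against 41.7 to 82.2 CPM), in Cracr2a (12 to 22.5 against 28.2 to 58.0 CPM), a calcium-channel regulator of T cells, and in Arhgap32 (10.1 to 13.2 against 13.7 to 48.4 CPM). Near Bnc2 the liver libraries had 8.98 to 16.6 CPM and the marrow libraries 15.6 to 52.4 CPM, with a small overlap. These calls held under all scalings and with any 1 library left out.

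Among list genes, 53 of 76 members were called higher in marrow by edgeR and none lower, with a median log2 fold change of 0.50, close to the 0.49 of all members. With loess offsets 13 of the 76 were higher. Over all 1545 members 995 (64.4%) were called higher, and 366 (23.7%) with loess offsets. All 4 members of the T and NK cell list, 10 of 13 of the cytokine receptors and 15 of 21 of the signalling list were called higher, and with loess offsets 2, 3 and 3. Single regions that kept the call under every alternative were those of Cxcr4 (log2 fold change 1.19, SE 0.12, edgeR adjusted p = 8.3e-12), Runx3 (1.09, SE 0.12, 3.7e-11), Il21r (0.89, SE 0.11, 5.2e-10), Ifnar2 (0.83), Fbn1 (1.24), Nr4a1 (1.24) and Zbtb46 (0.91). Those of Runx1, Meis1, Flt3, Dock2, Lcp2 and Lyn were called (log2 fold changes of 0.54 to 0.70) but not with loess offsets, where they came to 0.07 to 0.21. In Adgrg1, Notch1 and Traf3ip3 the call by edgeR (0.39, 0.31 and 0.50) turned to -0.13, -0.13 and -0.04 with loess offsets, none of them called. The region of Rassf5, whose liver and marrow libraries did not overlap in CPM, had 0.23 with loess offsets (edgeR adjusted p = 0.15) and was not called. Those of Kcnab2 and St6galnac5, also without overlap, had 0.51 (0.00079) and 0.28 (0.013).

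Only 6 members were lower in marrow (3 without E12.5 FL 2). The clearest, 13.7 kb from the ribosomal protein gene Rpl38 (chr11:114653565-114654159), had 10.7 to 13.3 CPM (median 12) in liver and 4.35 to 8.44 (median 6.21) in marrow, with no overlap, and fell by 0.69 on the log2 scale (SE 0.17, edgeR adjusted p = 0.0012). In E12.5 PL it had 0.215 to 1.78 CPM. Slc16a14, Gucy2c and Tmem217 were lower by edgeR as well (log2 fold changes of -0.45, -0.49 and -0.43) with overlapping libraries. The calls of Slc16a14 and Gucy2c were lost without E12.5 FL 2 (edgeR adjusted p = 0.061 and 0.069), and that of Tmem217 without any of several libraries, with the highest adjusted p (0.14) without E16.5 FL 1.

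Stage by stage, the step from E16.5 FL to perinatal BM had the most calls with TMM and with total counts, but not with loess offsets. From E12.5 FL to E16.5 FL no member was called by edgeR or by DESeq2 (1 region in all, 0.00101%, by edgeR). An unadjusted edgeR p under 0.05 was found for 166 of 1545 members and for 7190 of all 99005 regions. The median log2 change was -0.15 over members, -0.10 over the other open regions and 0.01 over all regions. From E16.5 FL to perinatal BM 345 members were higher and none lower (22.3% of members, against 6.66% of all regions higher and 1.36% lower), with a median of 0.49. Of the other open regions 17.0% were higher and 0.964% lower, with a median of 0.30. The number of members higher was 33 with loess offsets (2.14%, against 1.62% of the others), 129 with total counts (8.35% against 7.33%), 104 without E16.5 FL 1 (6.73% against 6.08%) and 114 without perinatal BM 2 (7.38% against 6.80%). From perinatal to 8w BM 50 members were higher and 6 lower (3.24% and 0.388%, against 1.37% and 1.50% of all regions), with a median of 0.12. Of the other open regions 1.84% were higher and 1.05% lower, with a median of 0.08, so that they leaned the same way. With loess offsets, and likewise with total counts, the members higher and lower were 40 and 13, which under loess is more than at the step before. With loess offsets 1.45% of the others were higher and 1.54% lower. With single libraries left out the members higher ranged from 22 to 59: 22 without perinatal BM 3, 23 without 8w BM 1, 27 without 8w BM 2 and 32 without perinatal BM 1. Whether 1 step differs from another was not tested. Perinatal BM enters 2 of these steps, and E16.5 FL another 2, so they are not independent.

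The cultured libraries give levels that the rule did not see. Of the members, 1494 (96.7%) matched a region of the cultured table by 50% of each region, and 1542 (99.8%) by 1 base. Of the 1494, 95.4% had 5 CPM or more in SHI and likewise in co-SHI, near the 94.7% and 94.1% of the other open regions. The median over members was 12.9 to 15 CPM in the SHI libraries and 14.4 to 15.1 CPM in co-SHI. So the members were open in E12.5 FL cells of a second experiment, with no PL cells in it for comparison.

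Between the media, 9 members were called higher in co-SHI and 1 lower by edgeR, of 1494 (0.602% and 0.0669%), where 0.228% and 0.332% of all 145129 regions were called. Of the matched other open regions 0.422% were higher and 0.713% lower. In both directions together, members were called less often than these (0.669% against 1.14%). A region in Immp2l (chr12:41878409-41878937), a gene of a mitochondrial peptidase, had a mean of 13.9 CPM in SHI and 21.4 in co-SHI (log2 fold change 0.62, edgeR adjusted p = 0.034). Il1f9 (14.6 to 18 against 20.7 to 28.7 CPM), a cytokine of the interleukin 1 family, Tbc1d2b (36.3 and 49.3 CPM on average) and Olfr1509 (14 to 18.3 against 23 to 24.6 CPM) were higher with adjusted p of 0.040 to 0.049, and Eif4g3 (17 and 10.7 CPM on average) was lower (0.048). These calls depended on the libraries in the fit. With 1 library left out the members called ranged from 0 to 29 higher and 0 to 46 lower. The highest numbers were without co-SHI 3, and there were none at all without SHI 2 or co-SHI 2. The 5 named calls all held without co-SHI 3, but none of them held with every other library left out in turn.

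The authors' peak lists show the same contrast in a different form. A deposited peak overlapped 1.36 to 6.15% of members in the E12.5 PL libraries, against 49.6 to 55.3% of the other open regions, and 1405 members (90.9%) had no peak in any of the 3. Of the other open regions 37.8% had no peak in any of the 3. A peak in all 3 was found for 10 members (0.647%), against 42.8% of the other open regions. In E16.5 FL, whose lists are the shortest, a peak overlapped 29.7 to 56.8% of members, in E12.5 FL 59.0 to 74.5%, in perinatal BM 77.9 to 94.7%, in later marrow 82.8 to 97.9%, in SHI 98.4 to 98.6% and in co-SHI 90.9 to 97.9%. The shares of the other open regions were 24.9 to 43.3% in E16.5 FL, 47.8 to 53.4% in E12.5 FL, 57.8 to 83.7% in perinatal BM, 66.1 to 92.0% in later marrow, 94.9 to 95.6% in SHI and 81.2 to 93.7% in co-SHI. A peak in all 23 libraries was found for 372 members (24.1%), against 20.3% of the other open regions, and 2 members had a peak in none of them. Since the lists come from the libraries that chose the members, these shares, except those of the cultured cells, describe the choice.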

How the data were processed

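ATAC-seq data of 32 libraries were used. Tn5-treated nuclei gave DNA that went through 10 cycles of PCR, per the labels' protocols. Trim Galore, MACS2, deepTools, DiffBind, HOMER and the build mm10 are named in the submitters' processing notes. The aligner, a Tn5 shift, duplicate removal and the merging of regions are not given in the sources used here. Any of these steps can alter the measurements. Without molecular identifiers, PCR reads are not independent molecules.

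The deposited tables give unscaled counts for each region, and 3 columns of the cultured table were left out. These carry the names of the uncultured E12.5 FL libraries, with larger totals than the columns of the same names in the developmental table, from which the E12.5 FL values here come, and the reason for the difference is not given in the sources used here. CPM was computed from column sums. The deposited peak lists, read in narrowPeak column order, carry a score, a fold enrichment (a ratio), −log10 p and −log10 q from the authors' peak caller. Only overlap, and a stricter −log10 q, were taken from them.

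Low regions were removed by filterByExpr (minimum 10). A two-sided quasi-likelihood test (edgeR 4.0.16, R 4.3.3) followed TMM scaling, over 9 group means in 1 fit, with Benjamini-Hochberg adjustment over the whole table at 0.05. The 6 cultured libraries had their own fit. The contrast behind the rule was not tested. On simulated counts for marrow against liver, 91 of 100 regions changed 2-fold and 100 of 100 changed 4-fold were recovered, with 5 false calls among 96679 regions. The simulated spread was the same for all regions, and unchanged regions had the same mean share of counts in all groups, E12.5 PL included. Shifts between groups that depend on the count were not simulated, so these numbers do not bear on them. Alternatives were DESeq2 1.42.0, its size factors, total counts, cyclic loess offsets (limma 3.58.1, span 0.3, 3 iterations), no filter, a replicate block, leaving out E12.5 PL or single libraries, and other thresholds.

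Each region was assigned to the nearest of 19938 protein-coding genes of GRCm38.p6 within 50 kb (bedtools 2.31.1 for overlaps), and 1492 members had a known start distance. Named regions, 1 per gene without predicted genes, were the 12 of highest ratio to E12.5 PL, the 10 of highest level, up to 4 genes per list, the 8 of smallest p in each direction for marrow against liver, the 8 of smallest CV, genes with 4 or more members, 3 on either side of the ratio of 4, the 4 of smallest p in each direction for co-SHI against SHI, and regions holding a start or a microRNA. Regions of chromosome 18 and a few others that these rules pick are not reported here. The members, the 18 lists (390 entries), the motifs and the comparisons were chosen with earlier results of these data known. Replicate libraries of a group differed beyond counting noise (chi-square of 2.19 to 5.44 per region), so none repeated the counts of another in its group. Pairs across groups were not compared in this way, and libraries made from the same cells could differ like this too.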

Additional observations from a re-analysis of the deposited data

How the results depend on the processing

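The number of members moved with every threshold and scaling of the rule. It was 718 with TMM library sizes, 331 with DESeq2 size factors, 3826 at 3 times and 247 at 6 times the E12.5 PL mean, 959 at a mean of 10 CPM, 151 when every library had to reach 4 times the highest E12.5 PL library, and 1427 to 2108 (the latter without E12.5 PL 3) with single libraries left out. Members called by the F test were 462 with total counts, 295 with loess offsets and 595 to 790 with a library left out. For marrow against liver, members higher and lower were 604 and 25 with total counts and 366 and 15 with loess offsets, and 842 to 1014 and 3 to 7 with a library left out. From E16.5 FL to perinatal BM, 129 were higher and 1 lower with total counts, 33 were higher with loess offsets, DESeq2 called 1 lower, and a library left out gave 104 to 363 higher and 0 lower. From perinatal to 8w BM, members lower were 11 with DESeq2, 13 with total counts, 13 with loess offsets and 15 without the E12.5 PL libraries, and a library left out gave 22 to 59 higher and 2 to 10 lower. For co-SHI against SHI, 19 were higher and 5 lower with total counts and 21 and 6 with loess offsets, and 0 to 29 and 0 to 46 with a library left out. A left-out library never gave a call from E12.5 FL to E16.5 FL (0 to 0).

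Under loess offsets the signs of 6 called regions for marrow against liver turned, to -0.13 in Adgrg1, -0.10 in Adgre1, -0.13 in Notch1, -0.14 in Hnrnpf, -0.07 in Lax1 and -0.04 in Traf3ip3, none of them called. Of 80 named regions called for that comparison, 34 kept the call under all alternatives run, and of 5 called for co-SHI none did. The cause of these shifts was not tested.

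Deviations of same-numbered developmental libraries correlated at a median of 0.042 (-0.15 to 0.34), and those of different numbers at -0.016 (-0.34 to 0.32). A correlation over 0.1 was found in 18 of 100 same-numbered pairs and 19 of 200 others. Of 26 libraries 14 lay closest to their own number. Whether replicate numbers pair the samples was not tested, and the main fit holds no pairing. With the replicate block, 1000 members were higher and 6 lower for marrow against liver, and 18 higher and 6 lower for co-SHI.

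On average 62.0 members had a peak in an E12.5 PL library, and 33.7 at a −log10 q of 5 or more. With gene ends widened to 2.5 kb 186 members were gene ends, and with the nearest gene limited to 10 kb 532 had none. The E12.5 PL counts (median 34 over 3 libraries) limit how well the ratio of a single member is known.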
